A study of Mus musculus with 8 samples.

Results

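The genes described here are 10 subunits of phosphatidylinositol 3-kinase (PI3K), taken by name from the 43629 genes counted in mouse 3T3-L1 adipocytes. They comprise the class I catalytic subunits Pik3ca, Pik3cb, Pik3cd and Pik3cg, the class IA regulatory subunits Pik3r1, Pik3r2 and Pik3r3, the class II enzyme Pik3c2a, and the class III catalytic subunit Pik3c3 with its regulatory partner Pik3r4. 3T3-L1 is an established mouse fibroblast line that becomes adipocyte-like in culture, and all cells here had been induced with insulin, dexamethasone, isobutylmethylxanthine and rosiglitazone. From day 8 the cells were left untreated or received, for 24 h, A66, palmitate, or palmitate plus A66. There were 2 libraries in each of the 4 groups, 8 in all. A66 is a small molecule that inhibits p110α, the protein encoded by Pik3ca, and was given at 2 µM according to the sample labels. The methods of the study describe another A66 dose with a DMSO vehicle, so the dose and the vehicle of these libraries are uncertain. Palmitate, a saturated fatty acid, was given at 0.5 mM bound to albumin, and no albumin-only group was analysed here. All libraries come from 1 cell line, and the methods call the 2 repeats of a group biological without saying whether they were independent cultures.

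Class IA PI3K is a dimer of a p110 catalytic and a p85-type regulatory subunit. The regulatory subunit stabilizes p110, holds its basal activity low, and brings it to phosphorylated receptors and adaptors such as the insulin receptor substrates. The dimer then makes the lipid PIP3, which recruits PDK1 and AKT, and in adipocytes this route carries the insulin signal for glucose uptake. Class II and class III enzymes make other 3-phosphoinositides, used in endocytosis and in autophagy.

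The class IA regulatory gene Pik3r1 was lower in both A66 groups, and no other member passed the test in a comparison of 2 groups. Pik3r1 encodes p85α and, from internal start sites, the shorter p55α and p50α. Its level was 264 and 247 counts per 1000000 counts of the library after TMM scaling (CPM) in the untreated libraries and 206 and 203 CPM with A66. It was 245 and 237 CPM under palmitate and 181 and 187 CPM under both agents. Every library with A66 lay below every library without it. The untreated and palmitate libraries lay close together, with 247 CPM in an untreated and 245 CPM in a palmitate library. Raw counts for the gene were between 8802 and 14175, so counting error was small beside these differences. The files count genes, and the p85α, p55α and p50α transcripts could not be told apart.

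With A66 alone, Pik3r1 fell by 0.32 on the log2 scale (SE 0.04, 95% interval -0.40 to -0.23, edgeR adjusted p = 0.000134), a change of -19.7%. In palmitate-treated cells A66 gave a log2 fold change of -0.39 (SE 0.04, 95% interval -0.48 to -0.30, edgeR adjusted p = 1.97e-05), or -23.5%. The groups compared share no library with the first comparison, but the estimate of spread came from all 8 libraries. With only the 4 libraries compared, the edgeR adjusted p was 5.63e-05. By p-value Pik3r1 stood at place 16 of 14158 genes in the first comparison and at place 5 of 14587 in the second. By size it stood at places 768 and 739, counted from the most negative log2 fold change. The interaction term, which compares both A66 effects, was -0.07 (95% interval -0.19 to 0.06, edgeR adjusted p = 0.849), so a difference between them was not detected. Palmitate alone gave a log2 fold change of -0.08 (95% interval -0.17 to 0.01, edgeR adjusted p = 0.457). In cells that all received A66, adding palmitate gave -0.15 (95% interval -0.24 to -0.06, edgeR adjusted p = 0.0642), which did not pass the threshold of 0.05. Its adjusted p lay between 0.0175 and 0.0609 in the other settings in which no single library was left out. It passed the threshold in 4 of them, among them the fit with only the 4 libraries compared, where it was 0.0175. Both treatments together, against untreated cells, gave -0.47 (SE 0.04, edgeR adjusted p = 3.13e-07), a change of -27.7%.

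**Figure D1:**
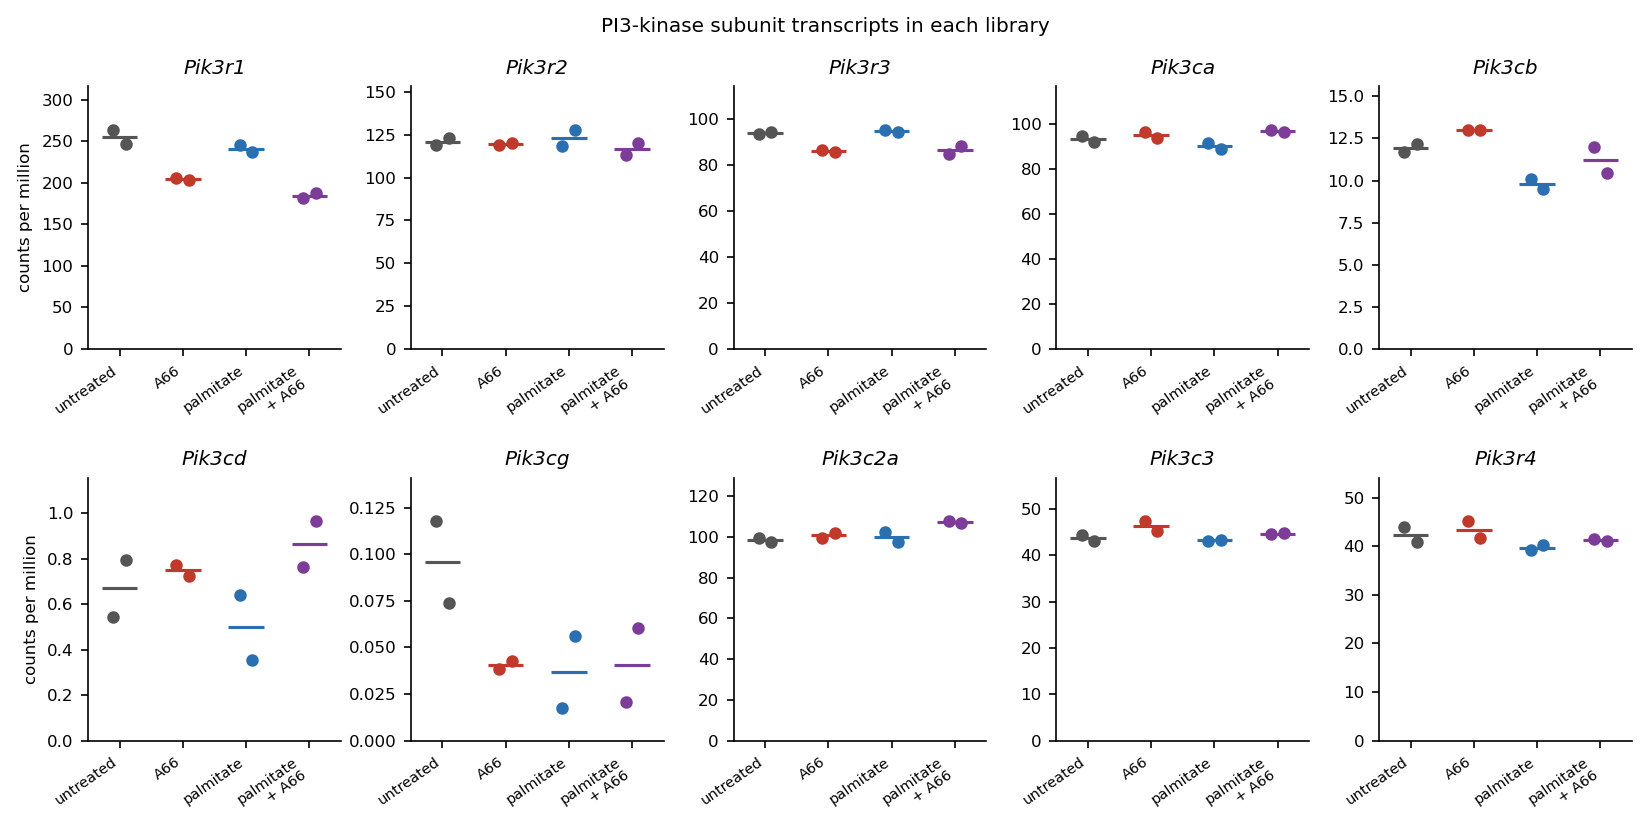
CPM of the 10 PI3K subunits in the 8 libraries, each panel with its own linear axis from 0; points are libraries and bars are group means of 2. The 4 libraries with A66 sit at 181 to 206 CPM for Pik3r1, below the 237 to 264 CPM of the 4 without it.

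The members called at an adjusted p under 0.05 are best read against all genes tested. Of 9 members tested (Pik3cg did not pass the filter on low counts), 1 was called for A66 against untreated cells, Pik3r1, where 1.84% of all genes were called. For palmitate plus A66 against palmitate it was again 1 of 9, with 2.81% of all genes called. Against untreated cells the combined treatment also called 1 of 9, where 7.5% of all genes were called. For palmitate against untreated cells edgeR called 0 of 9 (1 at an unadjusted p under 0.05, 0 with DESeq2), with 1.17% of all genes called. For palmitate plus A66 against A66 it called 0 of 9 (3 at an unadjusted p under 0.05, and 1 with DESeq2), with 2.73% of all genes called. The interaction of A66 with palmitate called 0 of 9 (0 at an unadjusted p under 0.05, 0 with DESeq2), where 0.00686% of all genes, a single gene, were called. A test for any difference among the 4 groups called 3 of 9, namely Pik3r1, Pik3r3 and Pik3cb, with 7.51% of all genes called. The median log2 fold change of the 9 members was 0.03 with A66 alone and 0.06 for A66 in palmitate-treated cells, where the medians over all genes were -0.0011 and -0.00079.

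Markers of the adipocyte state were measured beside these values, since in a culture fewer differentiated cells and less RNA per cell cannot be told apart. The 10 adipocyte markers, among them the adipokine gene Adipoq at 2049 to 2546 CPM and the lipid carrier gene Fabp4 at 2638 to 3053 CPM, were abundant in all libraries. None of the 10 was called by edgeR for A66 against untreated cells, and their summed level was 17712 to 17852 CPM without and 17391 to 18019 CPM with A66. Lpl, at 9258 to 9922 CPM in these libraries, gave most of that sum, so the sum says little about the other markers. Single markers ran from a log2 fold change of -0.15 for Slc2a4 (edgeR adjusted p = 0.0659) to 0.11 for Adipoq (edgeR adjusted p = 0.170). In palmitate-treated cells 3 of the 10 were lower with A66, at log2 fold changes of -0.23 (Cidec), -0.32 (Retn) and -0.23 (Slc2a4), beside -0.39 for Pik3r1. The summed level there was 15760 to 16677 CPM without and 15200 to 16211 CPM with A66. For palmitate plus A66 against A66, 7 of the 10 were lower, and against untreated cells, the comparison with the largest fall of Pik3r1, 6 of the 10 (Cidec, Lipe, Lpl, Plin1, Retn and Slc2a4) were lower. The part of this shift in the Pik3r1 values of the palmitate groups was not tested. Leukocyte markers summed to 2.83 to 6.08 CPM over 10 genes, highest in the palmitate plus A66 libraries, where Cd68 rose against untreated cells by a log2 fold change of 0.88 (edgeR adjusted p = 0.00103). The defining leukocyte genes Adgre1 and Cd3e had no count in any library, and Ptprc had 1 library above 0, at 0.0193 CPM. The preadipocyte marker Dlk1 was at 0 in all 8, while the 6 preadipocyte markers together gave 337 to 365 CPM. Among them, Ly6a, gave 15.5 and 17.5 CPM without treatment, 17.5 and 19.4 CPM under A66, 18.6 and 15.4 CPM under palmitate, and 24.4 and 19.5 CPM under both agents. It was called higher for both agents against untreated cells (log2 fold change 0.41, edgeR adjusted p = 0.0149), and its part in the Pik3r1 values was not tested. The 4 endothelial markers summed to 0.847 to 1.28 CPM.

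The start sites of Pik3r1 are shown because a gene count adds up transcripts that begin at separate places. RefSeq lists 2 start windows for the gene on GRCm38.p6, on the minus strand of chromosome 13, where the gene as annotated by GENCODE spans 101680563 to 101768217. The upstream window at chr13:101768218-101768467 precedes the first exon of the long transcript, and the window at chr13:101692631-101692880 lies inside the gene. Each line gives the 250 bases before the start, 5′ to 3′ on the strand of the gene. Capitals mark matches, read on both strands, to any of 4 motifs. The GC box was searched as GGGCGG, a site bound by SP1-type factors. The CCAAT box, bound by NF-Y, was searched by those letters. The TATA box, which places the start of transcription, was searched as TATAAA. The binding core of FOXO factors, which AKT controls, was searched as GTAAACA. No match here overlaps another.
Pik3r1, upstream start: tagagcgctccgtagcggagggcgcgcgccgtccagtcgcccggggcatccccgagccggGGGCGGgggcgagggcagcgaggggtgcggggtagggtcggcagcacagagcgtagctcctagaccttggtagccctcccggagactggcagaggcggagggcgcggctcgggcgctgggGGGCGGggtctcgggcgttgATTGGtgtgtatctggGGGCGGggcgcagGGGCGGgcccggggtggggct
Pik3r1, internal start: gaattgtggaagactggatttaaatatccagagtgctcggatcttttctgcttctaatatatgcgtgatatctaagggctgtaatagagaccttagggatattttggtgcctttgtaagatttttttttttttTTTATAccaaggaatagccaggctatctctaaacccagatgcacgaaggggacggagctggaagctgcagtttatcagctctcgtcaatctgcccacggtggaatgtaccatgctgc
The upstream window is 76.4% G and C, with 4 GC boxes and 1 CCAAT box. The internal window is 42.4% G and C, with 1 TATA match and no GC box. Of 32851 RefSeq windows of this length, 32.7% hold a GC box, 33.8% a CCAAT box, 12.4% a TATA match and 3.17% the FOXO core. Neither window of Pik3r1 holds the FOXO letters, which says only that these letters are not in these bases. Matches are descriptions of sequence and were not tested for binding.

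The other regulatory genes differed from Pik3r1 in size of response. Pik3r3 encodes p55γ, a short regulatory subunit. Its level was 93.4 and 94.5 CPM without treatment, 86.8 and 85.7 CPM under A66, 95.4 and 94.5 CPM under palmitate, and 84.9 and 88.1 CPM under both agents. As for Pik3r1, no library with A66 overlapped a library without it, but the share of all genes that separate in this way was not counted. The log2 fold change with A66 was -0.12 (95% interval -0.21 to -0.03, edgeR adjusted p = 0.193), and in palmitate-treated cells it was -0.13 (95% interval -0.22 to -0.05, edgeR adjusted p = 0.100). Neither passed the threshold, while the test across the 4 groups gave an edgeR adjusted p of 0.0435. That call was lost when any 1 of the 8 libraries was left out, with adjusted p between 0.0582 and 0.148. Pik3r3 shares 1289 exon bases with the gene model Gm49337 on the same strand, and its counts are uncertain to that extent.

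Pik3r2 encodes p85β, the other full-length class IA regulatory subunit. It gave 119 and 123 CPM without treatment, 119 and 120 CPM under A66, 118 and 128 CPM under palmitate, and 113 and 120 CPM under both agents. These ranges overlap in every pair of groups. The log2 fold change with A66 was -0.01 (95% interval -0.10 to 0.07, edgeR adjusted p = 0.935), so a change of the size seen for Pik3r1 lies outside the interval. In palmitate-treated cells it was -0.08 (95% interval -0.17 to 0.02, edgeR adjusted p = 0.472).

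The windows before the most upstream RefSeq starts of Pik3r3 and of Pik3ca are given for comparison with that of Pik3r1, with capitals as above. They lie on the plus strand at chr4:116221166-116221415 and chr3:32396815-32397064 of GRCm38.p6, upstream of the genes as GENCODE annotates them (116221618 to 116303056 on chromosome 4, and 32397671 to 32468486 on chromosome 3).
Pik3r3: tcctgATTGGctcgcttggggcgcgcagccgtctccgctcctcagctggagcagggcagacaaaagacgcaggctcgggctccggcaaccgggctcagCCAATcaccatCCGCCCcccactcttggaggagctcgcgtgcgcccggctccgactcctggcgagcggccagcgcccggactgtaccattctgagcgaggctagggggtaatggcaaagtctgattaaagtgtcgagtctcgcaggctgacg
Pik3ca: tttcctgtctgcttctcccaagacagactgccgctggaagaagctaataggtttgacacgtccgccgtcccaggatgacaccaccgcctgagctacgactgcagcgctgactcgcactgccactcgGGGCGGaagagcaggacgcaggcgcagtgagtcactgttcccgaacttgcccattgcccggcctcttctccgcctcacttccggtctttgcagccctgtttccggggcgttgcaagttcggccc
The Pik3r3 window has 1 GC box and 2 CCAAT boxes at 65.6% G and C, and the Pik3ca window has 1 GC box at 61.6% G and C. Pik3r1 and Pik3r3, which were lower in all A66 libraries, both hold a GC box and a CCAAT box in their upstream window, and so do Pik3cb and Pik3c2a, which were not.

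The gene for the protein that A66 inhibits varied little between libraries, as did several other members. Pik3ca gave 94.4 and 91.8 CPM without treatment, 96.3 and 93.7 CPM under A66, 91.4 and 88.6 CPM under palmitate, and 97.2 and 96.4 CPM under both agents. The highest library was 1.10 times the lowest. That ratio was also 1.10 for Pik3c3 and for Pik3c2a, 1.12 for Pik3r3 and 1.13 for Pik3r2. With A66 alone the log2 fold change was 0.03 (95% interval -0.06 to 0.12, edgeR adjusted p = 0.827). In palmitate-treated cells both A66 libraries lay above both others, at a log2 fold change of 0.11 (95% interval 0.02 to 0.19, edgeR adjusted p = 0.230), which did not pass the threshold. A66 acts on the p110α protein, so the transcript gives no check of which libraries received it.

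Pik3cb, which encodes p110β, was the only catalytic gene to pass the test across the 4 groups (edgeR adjusted p = 0.0418). It gave 11.7 and 12.1 CPM without treatment, 13.0 and 13.0 CPM under A66, 10.1 and 9.51 CPM under palmitate, and 12.0 and 10.5 CPM under both agents. Both palmitate libraries were the lowest of the 8 and both A66 libraries the highest. No single comparison of 2 groups passed the threshold. The log2 fold change with palmitate was -0.28 (95% interval -0.48 to -0.08, edgeR adjusted p = 0.190), and with A66 it was 0.13 (95% interval -0.06 to 0.31, edgeR adjusted p = 0.611). Leaving out untreated replicate 2, either A66 library or either palmitate library ended the call across groups, at adjusted p of 0.0504, 0.139, 0.124, 0.0668 and 0.148. Without the other 3 libraries in turn it remained.

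The leukocyte-enriched catalytic genes had low counts. Pik3cd, for p110δ, had 19 to 48 counts per library, or 0.354 to 0.963 CPM. For palmitate plus A66 against palmitate its log2 fold change was 0.79 (95% interval 0.02 to 1.55, edgeR adjusted p = 0.328), and an interval this wide leaves most sizes of change undetectable at this depth. It was 1.28 without palmitate replicate 1 and 0.43 without palmitate replicate 2. Pik3cg, for the class IB subunit p110γ, had 5 and 4 counts without treatment, 2 and 2 under A66, 1 and 3 under palmitate, and 1 and 3 under both agents. These lie around the limit of 3 counts, which equals 0.0521 to 0.0710 counts per 1000000 before TMM scaling, and no difference in Pik3cg could be detected.

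**Figure D2:**
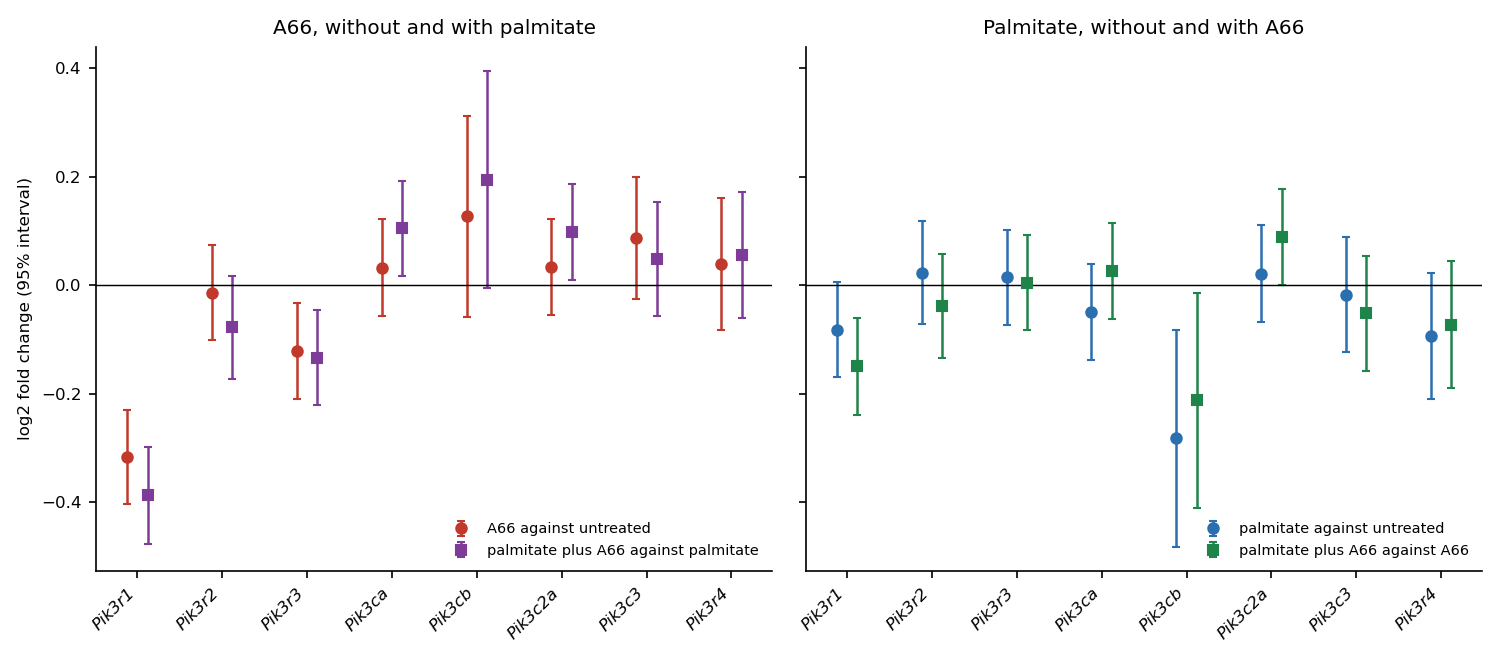
Log2 fold change with 95% interval for the tested members other than Pik3cd, for A66 (left, without and with palmitate) and for palmitate (right, without and with A66). Pik3r1 lies at -0.32 and -0.39 for A66, and the intervals of Pik3r3, at -0.12 and -0.13, are also below 0 before adjustment over genes.

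No class II or class III gene was called in any comparison. Pik3c2a, whose product acts in clathrin-mediated endocytosis, gave 99.7 and 97.7 CPM without treatment, 99.5 and 102 CPM under A66, 103 and 97.7 CPM under palmitate, and 108 and 107 CPM under both agents. The combined treatment held the highest values, and its log2 fold change against untreated cells was 0.12 (95% interval 0.03 to 0.21, edgeR adjusted p = 0.0939). Pik3c2a shares 1369 exon bases with the antisense gene model Gm44777. The library kit marks strand, but whether the counting used it is not given in the sources used here.

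Pik3c3 encodes VPS34, the class III kinase of autophagy and endosomal sorting, and Pik3r4 encodes VPS15, its regulatory partner. Pik3c3 was between 43.0 and 47.3 CPM in the 8 libraries and Pik3r4 between 39.2 and 45.1 CPM. The 4 libraries with A66 held 44.7 to 47.3 CPM of Pik3c3 and the 4 without it 43.0 to 44.4 CPM. These ranges do not overlap but lie close, and the share of all genes that separate in this way was not counted. Those of Pik3r4 overlapped. The log2 fold changes of Pik3c3 and Pik3r4 with A66 were 0.09 (95% interval -0.03 to 0.20, edgeR adjusted p = 0.544) and 0.04 (95% interval -0.08 to 0.16, edgeR adjusted p = 0.855). The ratio of their levels per length stayed at 2.23 ± 0.0698 (SD, n = 2) without treatment, 2.31 ± 0.0592 under A66, 2.35 ± 0.0277 under palmitate and 2.34 ± 0.0208 under both agents.

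Levels were compared between genes as TPM, counts per base of annotated exon scaled to sum to 1000000 in each library. In untreated cells the regulatory genes led, with Pik3r2 at 92.8 ± 2.90 TPM (SD, n = 2), Pik3r1 at 81.1 ± 3.32 TPM and Pik3r3 at 56.8 ± 0.786 TPM. Pik3ca followed at 32.8 ± 0.463 TPM, with Pik3c3 at 31.4 ± 0.475 TPM, Pik3c2a at 28.4 ± 0.239 TPM, Pik3r4 at 14.1 ± 0.653 TPM and Pik3cb at 5.31 ± 0.170 TPM. Pik3cd was at 0.342 ± 0.0936 TPM and Pik3cg at 0.0364 ± 0.0116 TPM. No neighbours in this order overlapped in the untreated libraries. With A66, Pik3ca (32.2 and 33.2 TPM) and Pik3c3 (31.7 and 33.2 TPM) did overlap. The order rests on the length used. Per coding base Pik3r1 came first at 145 TPM, Pik3r3 followed at 83.6 TPM and Pik3r2 next at 68.8 TPM, and with the longest transcript Pik3ca moved from place 4 to place 6. Pik3ca stood above Pik3cb, Pik3cd and Pik3cg by each length.

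**Figure D3:**
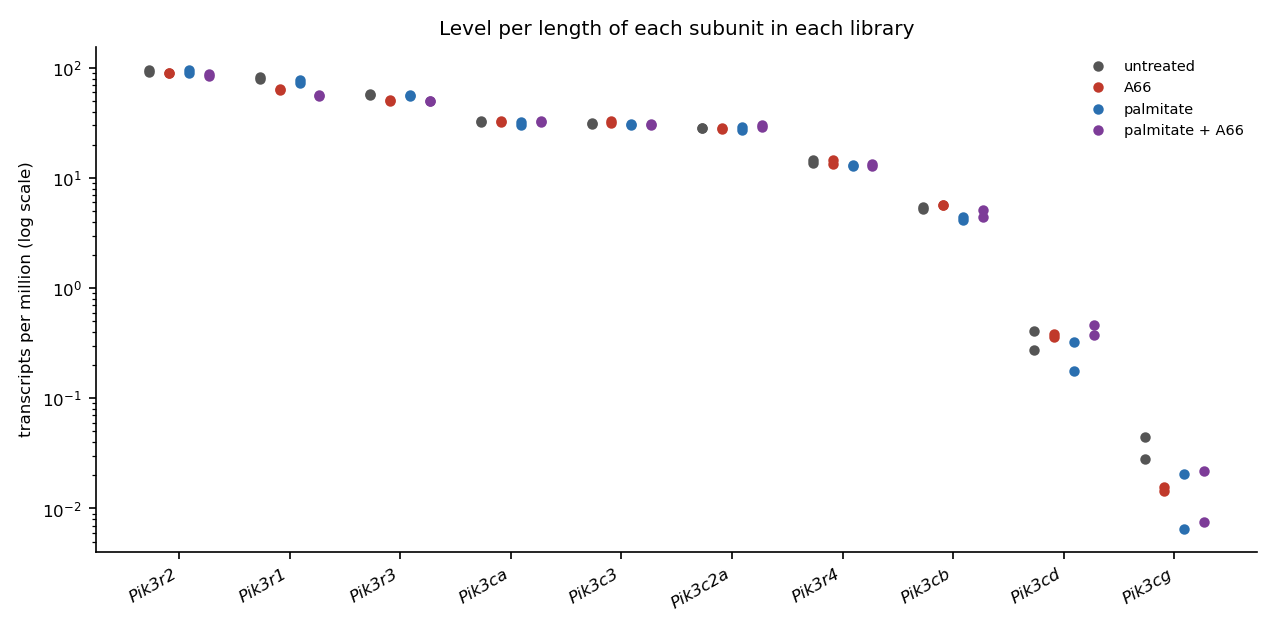
TPM of each member on a logarithmic axis, with 1 point per library coloured by group and genes ordered by their untreated mean. The members run from 92.8 TPM for Pik3r2 down to 0.0364 TPM for Pik3cg, and the A66 points of Pik3r1 lie below its untreated points.

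The composition of the class I pool was described with shares of these TPM values. Pik3ca made up 85.2% of the class I catalytic transcripts without treatment, 84.4% under A66, 87.3% under palmitate and 86.2% under both agents, and Pik3cb nearly all of the remainder. Averaged over cells with and without A66, palmitate moved the Pik3ca share by 1.92 percentage points and the Pik3cb share, which nearly mirrors it, by -1.87 (two-sided exact permutation test within A66 strata, p = 0.0556 for each). A66 moved the Pik3ca share by -0.934 points with the same p. Among regulatory transcripts the Pik3r1 share was 35.1% ± 1.49 (SD, n = 2) without treatment, 31.1% ± 0.288 under A66, 33.6% ± 1.23 under palmitate and 29.2% ± 0.281 under both agents. Averaged over cells with and without palmitate, A66 moved this share by -4.18 percentage points (two-sided exact permutation test within palmitate strata, p = 0.0556). The 3 shares sum to the whole, so the gains of the Pik3r2 share (3.52 points) and of the Pik3r3 share (0.661 points, or 1.68 per coding base) are largely fixed by that fall and are not separate results. With A66 alone the mean level of Pik3r2 went from 92.8 to 89.6 TPM and that of Pik3r3 from 56.8 to 50.9 TPM.

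The sum of the 3 regulatory transcripts was 6.00 ± 0.0406 (SD, n = 2) times that of Pik3ca, Pik3cb and Pik3cd in untreated cells. It was 5.27 ± 0.0787 under A66, 6.29 ± 0.258 under palmitate and 5.06 ± 0.243 under both agents. All 4 libraries with A66 lay below all 4 without it, a mean difference of -0.977 (two-sided exact permutation test, p = 0.0556). Palmitate moved the ratio by 0.0444 (exact p = 0.667), a difference whose sign turned per coding base (-0.0352) and without palmitate replicate 2 or palmitate plus A66 replicate 2. Without 1 library it lay between -0.0467 and 0.136. Pik3r1 over Pik3ca went from 2.47 in untreated cells to 1.94 with A66, and from 2.42 with palmitate to 1.72 with both. Averaged over cells with and without palmitate this is a difference of -0.614, and per coding base it was -1.01. Palmitate moved Pik3r1 over Pik3ca by -0.139 (exact p = 0.0556), or -0.227 per coding base. The value 0.0556 is the smallest that 36 relabellings can give, so none of these 16 tests could pass 0.05. Adjusted over the 16 by Benjamini-Hochberg, the smallest p was 0.0988. These are transcript ratios, and protein was not measured here.

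**Figure D4:**
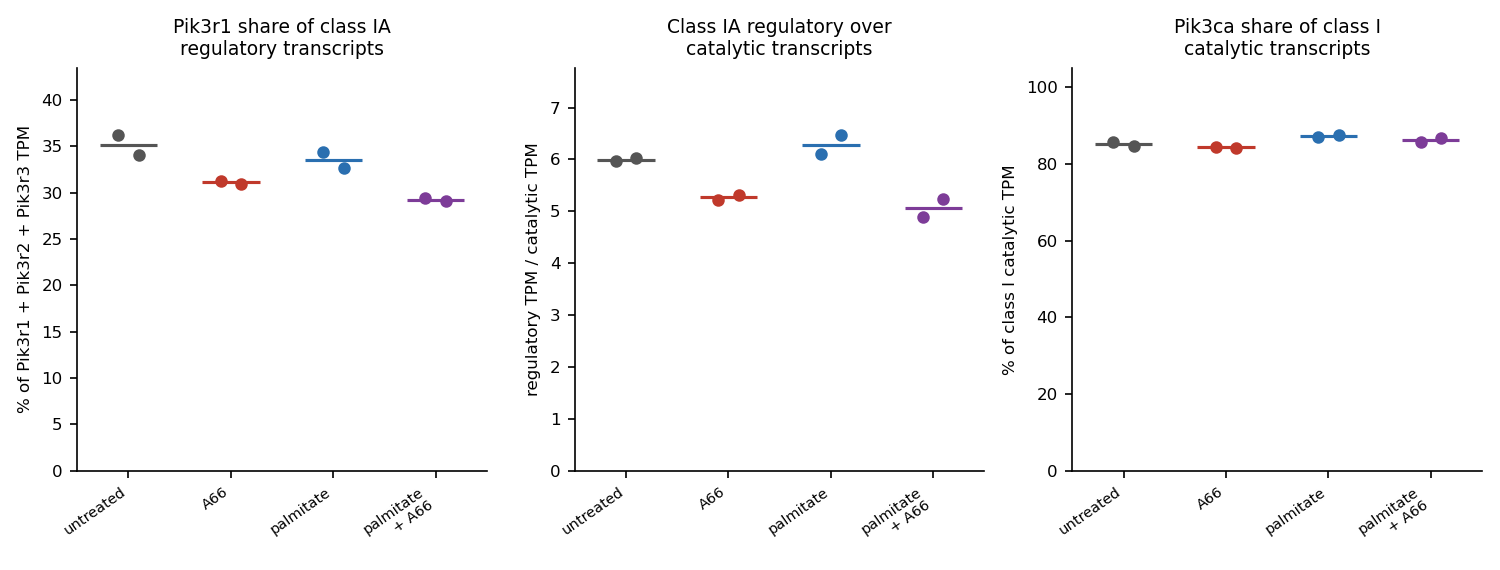
Pik3r1 share of the class IA regulatory TPM, ratio of class IA regulatory to catalytic TPM, and Pik3ca share of class I catalytic TPM in each library (points) with group means of 2 (bars), all axes from 0. The ratio is 4.89 to 5.32 in the libraries with A66 and 5.97 to 6.47 in those without, and the Pik3ca share stays between 84.2% and 87.6%.

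Genes around PI3K were read from 6 lists with 62 genes in all. Among 14 tested phosphoinositide phosphatases, which remove the lipids that PI3K makes, edgeR called 0 in every comparison. The smallest p across the 4 groups belonged to Inppl1, the phosphatase SHIP2 (177 to 196 CPM, edgeR adjusted p = 0.107), and to Mtmr1 (64.7 to 73.2 CPM, edgeR adjusted p = 0.15). Among 10 tested phosphoinositide kinases, which make the substrates, edgeR also called 0 in every comparison, with Pip4k2c (adjusted p = 0.182) and Pip5k1c (adjusted p = 0.208) lowest.

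Among 9 receptors and adaptors, 1 was called for A66 against untreated cells and across the 4 groups, and 0 in the other comparisons. That gene was Igf1r, the receptor of insulin-like growth factors, at 18.1 and 17.8 CPM without treatment, 21.2 and 23.4 CPM under A66, 19.4 and 17.7 CPM under palmitate, and 22.1 and 19.3 CPM under both agents. The untreated and A66 libraries did not overlap, and those of both palmitate groups did. Its log2 fold change with A66 was 0.32 (95% interval 0.16 to 0.47, edgeR adjusted p = 0.0293). Without A66 replicate 2 it was 0.25 with an adjusted p of 0.377, with DESeq2 the adjusted p was 0.0602, and with all 8 libraries in the edgeR fit it was 0.0606. Across the 4 groups the edgeR adjusted p was 0.0442. That call was lost with library size only (0.0578) and without either untreated library (0.0910 and 0.102), either A66 library (0.0655 and 0.254), palmitate replicate 2 (0.0554) or palmitate plus A66 replicate 1 (0.0627).

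Among the downstream kinases and FOXO factors, 13 genes were tested. Foxo4 gave 63.8 and 63.2 CPM without treatment and 74.3 and 65.7 CPM under A66. Under palmitate it gave 57.8 and 61.5 CPM, and under both agents 62.9 and 66.5 CPM. The gene encodes a forkhead factor that AKT holds out of the nucleus. It was called only across the 4 groups (edgeR adjusted p = 0.0469), and not without A66 replicate 1 (0.370) or palmitate replicate 1 (0.161).

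Among other PI3K genes, 3 of 6 were tested and 1 was called, Pik3ip1, which encodes a membrane protein that inhibits PI3K. It gave 44.3 and 48.0 CPM without treatment, 48.6 and 49.2 CPM under A66, 49.9 and 49.2 CPM under palmitate, and 58.1 and 54.9 CPM under both agents. The combined treatment stood above all other libraries, by a log2 fold change of 0.29 against untreated cells (edgeR adjusted p = 0.001), 0.19 against palmitate (edgeR adjusted p = 0.0499) and 0.21 against A66 (edgeR adjusted p = 0.0284). The interaction was 0.11 (95% interval -0.05 to 0.26, edgeR adjusted p = 0.769). The call against palmitate was lost in 6 of 8 fits without 1 library (adjusted p from 0.0688 without A66 replicate 1 to 0.365 without palmitate plus A66 replicate 1, and lost also without A66 replicate 2, either palmitate library or palmitate plus A66 replicate 2), with DESeq2 (0.0631) and with library size only (0.0911). The call against A66 was lost without either A66 library (0.286 and 0.126) or palmitate plus A66 replicate 1 (0.343), and with library size only (0.0514).

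Among 6 partners of the class III complex, Rubcn alone was called, for both treatments against untreated cells (log2 fold change 0.20, edgeR adjusted p = 0.0439). Rubcn encodes Rubicon, an inhibitor of autophagosome maturation. The library values were 65.5 and 59.1 CPM in untreated cells and 76.4 and 66.6 CPM with both treatments, which do not overlap but lie close. The call was lost without untreated replicate 2 (0.13, adjusted p = 0.331) or palmitate plus A66 replicate 1 (0.10, adjusted p = 0.509), with DESeq2 (adjusted p = 0.0514), with library size only (0.0817) and with only the 4 libraries compared (0.0714).

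**Figure D5:**
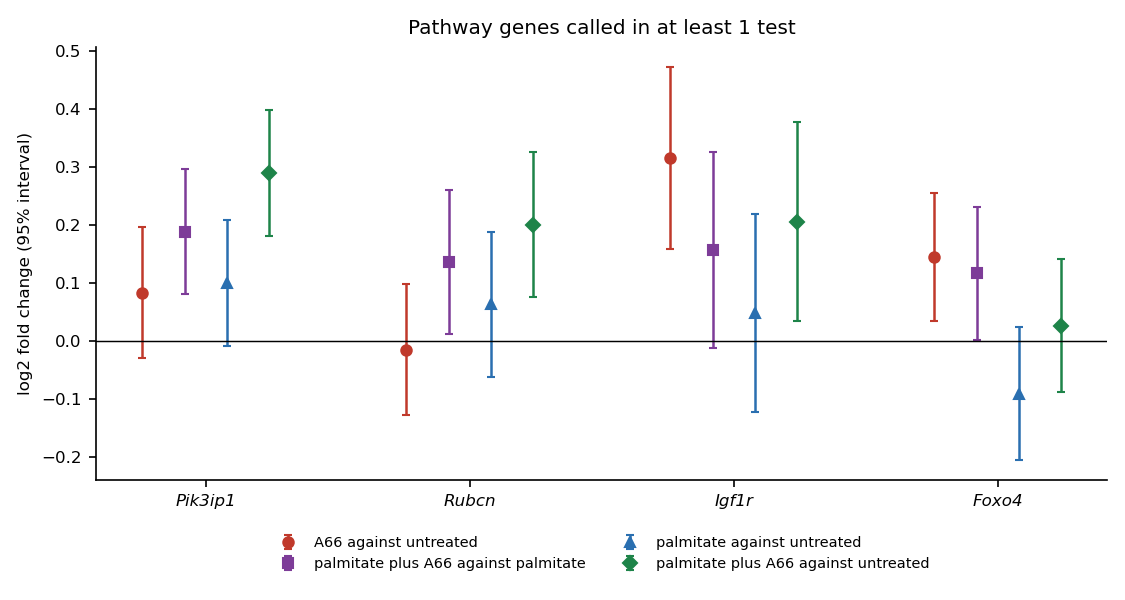
Log2 fold change with 95% interval for Pik3ip1, Rubcn, Igf1r and Foxo4, each called in at least 1 test, in 4 comparisons. Pik3ip1 stands at 0.29 for both treatments against untreated cells, and Igf1r at 0.32 for A66 alone.

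The genes most like Pik3r1 across the 8 libraries were found by Pearson's r of log2 CPM over 14586 other genes. They were Mccc1, a subunit of the leucine-degrading methylcrotonoyl-CoA carboxylase (r = 0.991), the sulfotransferase gene Sult1a1 (r = 0.978) and Klf13, a zinc-finger transcription factor (r = 0.977). Among the members Pik3r3 was the most like it (r = 0.898) and Pik3r2 next (r = 0.467), while Pik3ca ran the other way (r = -0.68). For Pik3ca the closest were Dkk3, a secreted protein of the Dickkopf family at 1.31 to 2.09 CPM (r = 0.971), Erbin, a scaffold that binds ERBB2 (r = 0.961), and Msh6, a mismatch repair gene (r = 0.957). These values rest on 8 points that share the treatment groups, and are given without a test. Since Pik3r1 fell with A66 in the same libraries, the choice largely fixes the direction of its 3 like genes with A66. For Sult1a1 the log2 fold changes were -0.36 without and -0.34 with palmitate, given as a description.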

How the data were processed

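Messenger RNA of 3T3-L1 adipocytes was sequenced from stranded poly(A) libraries. Per the labels and methods, the authors aligned reads to GRCm38 with TopHat2 2.0.11, counted them with HTSeq and deposited whole-number counts for Ensembl gene identifiers. The annotation and strand setting of the counting are not given in the sources used here. The authors also deposited their DESeq2 output, which holds a log2 fold change and its standard error, p-values, and scores (mean normalized count, Wald statistic), and none of it was used. Library totals were 42247091 to 57529803 counts. No molecular identifiers are described, so limits set by 3 counts cover counting error only.

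Groups were taken from the treatment labels. Counts were fitted in R 4.3.3 with edgeR 4.0.16 (TMM, filterByExpr with minimum count 10, quasi-likelihood tests, Benjamini-Hochberg adjustment over all genes tested). A66 against untreated cells used those 4 libraries and all other tests the 8 libraries. CPM is counts per 1000000 of the TMM-scaled library total, and TPM divides by the exon union of GENCODE M21. The code was tested on simulated data. P-values measure the spread between 2 libraries per group. Replicates differed by more than sampling noise, the average chi-square over genes being 6.15 to 8.99. Pathway genes were named if called in any test, otherwise the 2 with the smallest p across groups, and the 3 genes most correlated with Pik3ca and with Pik3r1 were named. Shares were tested by exact permutation. Promoter windows are from RefSeq on GRCm38.p6. Alternatives were DESeq2 1.42.0 size factors and test, library size scaling, no filter on low counts, the other choice of libraries, a replicate block, other gene lengths, and leaving out each library. Some genes of the lists are not reported here. The members and lists were chosen with earlier results of these data known.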

Additional observations from a re-analysis of the deposited data

How the results depend on the processing

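The fall of Pik3r1 with A66 stayed called in every alternative run. Its log2 fold change lay between -0.36 and -0.27 without 1 library (highest edgeR adjusted p 0.0102) and between -0.41 and -0.36 in palmitate-treated cells (highest 0.000656). In those fits a lone library is assumed to vary like the other groups. For palmitate plus A66 against A66, Pik3r1 was called, 1 member in place of 0, with library size only, with DESeq2, with no filter on low counts and with only the 4 libraries compared, and 0 to 1 members were called without 1 library. The cause was not tested. With library size only, 2 members in place of 1 were called for both treatments against untreated cells, as Pik3r3 reached -0.15 (adjusted p = 0.0339), and Pik3r3 turned from 0.0049 to -0.011 for palmitate plus A66 against A66. Across the 4 groups 1 to 2 members were called without 1 library.

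Counts over all genes moved more. With no filter on low counts they were 459 for A66 against untreated cells (261 as reported), 652 (410) for palmitate plus A66 against palmitate, 396 (171) for palmitate, 664 (398) for palmitate plus A66 against A66, 91 (1) for the interaction and 1753 (1095) across the 4 groups. With only the 4 libraries compared, palmitate plus A66 against A66 gave 689. The interaction gave 2 with library size only and 21 with DESeq2. Without 1 library, in the same order, the counts were 98 to 635, 147 to 494, 71 to 245, 107 to 502, 0 to 10 and 704 to 1208, and 437 to 1236 for both treatments against untreated cells.

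The replicate numbers did not pair the samples (correlations of deviations between -0.018 and 0.048). A replicate block gave 3 called genes for the interaction, left the members' calls as reported, and took Pik3ip1 against palmitate to an adjusted p of 0.0533.

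Small log2 fold changes that were never called changed sign without 1 library. With A66 alone these ranged from -0.040 to 0.016 for Pik3r2, -0.022 to 0.096 for Pik3r4 and -0.084 to 0.47 for Pik3cd. With palmitate alone they ranged from -0.015 to 0.060 for Pik3c2a, -0.031 to 0.079 for Pik3r2 and -0.039 to 0.0032 for Pik3c3. For palmitate plus A66 against A66 they were -0.023 to 0.032 for Pik3r3 and -0.082 to 0.0049 for Pik3r2, and against untreated cells -0.184 to 0.0055 for Pik3cb and -0.091 to 0.015 for Pik3r4. For the interaction they were -0.036 to 0.014 for Pik3r3, -0.032 to 0.165 for Pik3cb and -0.035 to 0.078 for Pik3r4.

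The ratio of regulatory to catalytic transcripts in untreated cells was 7.41 with the longest transcript and 7.31 per coding base, where the A66 difference was -1.35. Depth limits Pik3cd and Pik3cg, and 2 libraries per group limit all calls. The exact permutation test of 2 against 2 libraries cannot go below 0.333. The share of all genes whose groups do not overlap was not counted, so non-overlap is given as a description only.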
